A study of Mus musculus with 16 samples.

Results

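Lower glycolysis turns phosphorylated three-carbon sugars into pyruvate, and its transcripts were followed here with those of lactate formation and of glucose and lactate transport in mouse neutrophils whose oxygen sensor was targeted. The set held 10 genes of the 49585 gene identifiers in the count tables, chosen by name for their place in the pathway: the enzyme genes Pgk1, Pgam1, Eno1 and Pkm, the lactate dehydrogenase genes Ldha and Ldhb, the lactate transporter genes Slc16a1 and Slc16a3, and the glucose transporter genes Slc2a1 and Slc2a3. All 10 passed the filter on low counts in every comparison.

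The libraries came from total RNA of bone cells of C57BL/6 mice aged 8 to 12 weeks, which the submitters describe as neutrophils obtained by FACS. P2KO libraries came from mice carrying Vav:cre and floxed PHD2 (gene Egln1), and P2WT from their wild-type controls. P2H2KO libraries came from mice carrying Vav:cre with both PHD2 and HIF2 (gene Epas1) floxed, and P2H2WT from the wild-type controls of that line. Vav:cre is active in blood-forming cells at large and not in neutrophils alone, so other blood cells of these mice carry the deletion too. Each of the 4 groups held 4 libraries, 16 in all, and the labels do not say whether each was a separate mouse, so the p-values measure the spread between libraries. The title of the series concerns HIF2 and neutrophil movement, and the comparisons asked what differs without PHD2 and what differs without PHD2 and HIF2 together.

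When oxygen is present, PHD2 hydroxylates the alpha subunits of the hypoxia-inducible factors HIF1 and HIF2, which marks them for degradation. HIF1 is known to raise transcription of most glycolytic enzymes, of lactate dehydrogenase A, of the lactate exporter MCT4 and of the glucose transporter GLUT1. Neutrophils have few mitochondria and take most of their energy from glycolysis, releasing lactate.

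The enzymes act in the order in which they are named here. Pgk1 (chromosome X, 106187100 to 106203699, plus strand) encodes phosphoglycerate kinase 1, which makes ATP. Pgam1 (chromosome 19, 41911923 to 41918660, plus strand) encodes phosphoglycerate mutase 1, Eno1 (chromosome 4, 150236721 to 150248879, plus strand) enolase 1, and Pkm (chromosome 9, 59656368 to 59679375, plus strand) pyruvate kinase M, which makes ATP and pyruvate. Ldha (chromosome 7, 46841475 to 46855627, plus strand) and Ldhb (chromosome 6, 142490249 to 142507957, minus strand) encode the A and B subunits of the enzyme that interconverts pyruvate and lactate. Slc16a1 (chromosome 3, 104638668 to 104658462, plus strand) encodes MCT1, a lactate carrier of many cells and of red blood cells, and Slc16a3 (chromosome 11, 120948480 to 120960868, plus strand) encodes MCT4, the lactate exporter of glycolytic cells. Slc2a1 (chromosome 4, 119108711 to 119137983, plus strand) encodes the widely expressed glucose transporter GLUT1, and Slc2a3 (chromosome 6, 122727809 to 122801640, minus strand) encodes the high-affinity transporter GLUT3. All positions follow the GENCODE M21 annotation of GRCm38, and counts cover whole genes. Exons of Pkm overlap those of Gm49759 on the same strand and exons of Slc2a1 those of Gm12868 on the opposite strand, so reads there may belong to either gene.

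HIF dimers bind the core letters ACGTG and GCGTG, so both were searched on both strands of the RefSeq promoter windows of GRCm38.p6, from 250 bases before to 50 after each start. Overlapping matches, as in CACGTG, which reads ACGTG on both strands, were merged into 1 site. A window was found for 9 of the 10 genes, and no entry matched Slc2a3. In the window nearest the main start, Ldha held 5 sites, Slc16a1 4, Pgam1 3, Pgk1, Eno1, Slc16a3 and Slc2a1 2 each, Ldhb 1 and Pkm 0. Pkm, Eno1 and Ldha had further windows, and each of these held 2 sites. Of all 32851 windows, 43.8% held at least 1 site, 17.3% at least 2, 2.44% at least 4 and 0.767% at least 5. The GC content of the nearest windows of the 9 genes was between 57% and 73.7%, above the median of 52.7% over all windows. It was not matched in these shares. The 250 bases before the start are shown for 3 genes whose P2H2KO and P2H2WT libraries did not overlap, as was so for 0.819% of all genes with P2H2KO higher (Ldha, Pgk1 and Eno1, none past the adjusted edgeR test). They are also shown for Slc16a1, whose 4 sites are the next most after Ldha and whose libraries overlapped. Capitals mark the motif letters of either strand. The 4 stretches lie at chr7:46845554-46845803, chrX:106186850-106187099, chr4:150236458-150236707 and chr3:104638414-104638663, all on the plus strand.
Ldha: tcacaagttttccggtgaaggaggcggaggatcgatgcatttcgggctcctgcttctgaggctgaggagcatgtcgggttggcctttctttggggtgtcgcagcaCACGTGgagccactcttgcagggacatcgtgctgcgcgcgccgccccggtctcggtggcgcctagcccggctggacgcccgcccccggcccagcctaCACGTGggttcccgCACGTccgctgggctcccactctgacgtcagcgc
Pgk1: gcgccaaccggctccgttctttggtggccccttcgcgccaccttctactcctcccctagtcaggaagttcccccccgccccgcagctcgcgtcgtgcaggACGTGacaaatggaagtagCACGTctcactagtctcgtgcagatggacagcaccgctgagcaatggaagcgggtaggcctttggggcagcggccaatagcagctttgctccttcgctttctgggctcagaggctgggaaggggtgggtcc
Eno1: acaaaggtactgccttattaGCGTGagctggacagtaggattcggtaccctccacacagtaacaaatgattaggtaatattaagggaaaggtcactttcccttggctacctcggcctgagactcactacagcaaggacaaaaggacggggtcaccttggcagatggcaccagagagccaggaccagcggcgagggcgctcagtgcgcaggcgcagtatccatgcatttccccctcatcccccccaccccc
Slc16a1: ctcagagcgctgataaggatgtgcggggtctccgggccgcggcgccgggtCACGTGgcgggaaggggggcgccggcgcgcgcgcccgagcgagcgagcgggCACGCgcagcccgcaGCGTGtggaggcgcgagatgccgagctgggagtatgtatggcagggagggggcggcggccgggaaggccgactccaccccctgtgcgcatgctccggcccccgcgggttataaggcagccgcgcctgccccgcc
The other sites of these windows lie after the start, beginning 25 and 37 bases past the start base in Ldha, 9 in Eno1 and 20 in Slc16a1. The sites of Slc2a1 lie 61 and 36 bases before the start and those of Slc16a3 27 and 14 bases before it. A match is a run of letters and not a measured binding site.

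Each library held 23450746 to 28601284 counts. Egln1 was at 42.95 to 58.2 CPM in P2KO against 46.1 to 51.6 in P2WT, and at 49.0 to 58.6 in P2H2KO against 47.7 to 54.6 in P2H2WT. Epas1 was at 3.41 to 8.28 CPM in P2H2KO against 2.58 to 5.02 in P2H2WT. In the P2 line it was at 6.73 to 24.2 CPM in P2KO against 8.73 to 11.2 in P2WT. The P2H2WT libraries thus all lay below the P2WT libraries for Epas1, as was so for 5.02% of genes tested. These counts are summed over whole genes and show no single exon, so they do not check the deletions. The 9 neutrophil markers together took 15420 to 42990 CPM per library, and the 10 erythroid markers, among them the haemoglobin genes, took 24340 to 49800 CPM. The summed markers were 1922 to 3527 CPM for monocytes and macrophages, 190 to 651 for B cells, 44.8 to 73.7 for T and NK cells and 29.05 to 175 for megakaryocytes. Every marker of each list had counts in every group. The erythroid sum was above the neutrophil sum in 12 of 16 libraries, although the cells were described as sorted neutrophils. In such bulk libraries, fewer cells of a type and less RNA per cell cannot be told apart.

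Levels are given as CPM, the usual scaling of counts to library size, here TMM-scaled, and levels of different genes are compared per kb of the principal transcript. On that scale Pkm stood first in every group, at 400 ± 49.3 CPM per kb (SD, n = 4) in P2WT and 579 ± 112 in P2H2KO. Ldha followed at 222 ± 20.3 and 327 ± 35.3, then Eno1 at 158 ± 11.8 and 277 ± 44.6. Thus the last enzymes of glycolysis and the A subunit that handles their pyruvate were the most abundant transcripts of the set.

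Slc16a1 came next at 91.9 ± 11.9 CPM per kb in P2WT. Slc2a3 (61.7 ± 14.5) and Pgk1 (59.2 ± 5.95) had overlapping ranges there, and the lowest Slc16a1 library lay below the highest Slc2a3 library. Slc16a3 was at 31.0 ± 11.4, overlapping with Pgam1 at 19.4 ± 2.07. Ldhb at 11.7 ± 2.48 and Slc2a1 at 6.15 ± 1.01 were last. Both genes of a transporter pair therefore stood apart in the wild type, MCT1 over MCT4 and GLUT3 over GLUT1. In P2H2KO the order changed at 2 places, with Pgk1 (92.1 ± 15.1) ahead of Slc2a3 (84.5 ± 21.2) and Slc2a1 (13.8 ± 3.30) ahead of Ldhb (12.65 ± 4.11), and both pairs overlapped.

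**Figure D1:**
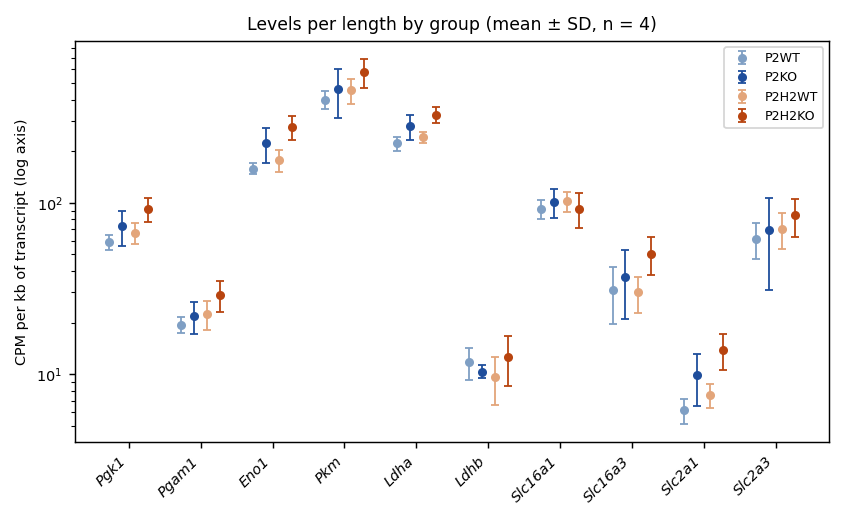
Mean level of each gene in each group in CPM per kb of transcript on a log axis, with the SD over 4 libraries as bars. Pkm is highest in all 4 groups (400 to 579), and Ldhb and Slc2a1 are lowest (6.15 to 13.8).

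In P2KO, 9 of the 10 genes had a higher fitted level than in P2WT, and Ldhb a lower one. None passed an adjusted p of 0.05 in edgeR's quasi-likelihood test over 13734 genes, of which 0.0437% passed. Eno1, Slc2a1 and Ldha had an unadjusted p under 0.05 and were higher, against 1.49% of all genes. The median log2 change over the 10 genes was 0.24, beside 0.020 over all genes tested, of which 57.8% were above 0. In P2H2KO, again 9 of 10 were higher than in P2H2WT, with Slc16a1 lower, and none passed the adjusted test, which 0.0744% of 13435 genes did. Here Pgk1, Pgam1, Eno1, Ldha, Slc16a3 and Slc2a1 were higher at an unadjusted p under 0.05, against 1.62% of all genes. The median log2 change was 0.43, beside 0.0011 over all genes, of which 50.5% were above 0. The groups did not overlap for Ldha in the P2 line, where 0.794% of genes tested were without overlap and higher in P2KO. Between P2H2KO and P2H2WT they did not overlap for Pgk1, Eno1, Ldha, Slc16a3 and Slc2a1, against 0.819% of genes. Ldha alone had no overlap in both lines, as did 25 of 13314 genes (0.188%).

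Eno1 had the largest difference among the 4 enzyme genes in both lines. It was at 303, 301, 329 and 352 CPM in P2WT replicates 3, 4, 7 and 10, and at 464.5, 399, 588 and 349.6 CPM in P2KO replicates 1, 5, 6 and 9, the order used for these groups from here on. P2KO replicates 1, 5 and 6 lay above all 4 controls, and replicate 9 just under the highest. The log2 fold change was 0.50 ± 0.16 (SE, 95% interval 0.15 to 0.85), with an edgeR p of 0.0105 and an adjusted p of 1. In P2H2WT replicates 13, 14, 16 and 18 Eno1 was at 334, 296, 390.5 and 415 CPM, and in P2H2KO replicates 11, 12, 15 and 17 at 479, 488.5, 649 and 630 CPM. All 4 P2H2KO libraries lay above all 4 controls. The log2 fold change was 0.66 ± 0.14 (interval 0.34 to 0.98), with an edgeR p of 0.00118 and an adjusted p of 0.537, which became 0.00698 in DESeq2 with 0.319% of genes called.

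Pgk1 was at 99.7, 97.9, 114.6 and 119.8 CPM in P2WT and at 135, 111, 176 and 110.1 CPM in P2KO. P2KO replicates 5 and 9 lay within the range of the controls, and the log2 fold change was 0.32 ± 0.16 (edgeR adjusted p 1). It was at 117, 98.7, 133 and 136 CPM in P2H2WT and at 139, 150.1, 195 and 188 CPM in P2H2KO, without overlap. In this line its log2 fold change was 0.48 ± 0.14 (interval 0.17 to 0.79), with an edgeR p of 0.0064 and an adjusted p of 1.

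Pkm, the most abundant gene of the set per kb, was at 914, 856, 988 and 1133 CPM in P2WT and at 1101, 909, 1621 and 836 CPM in P2KO. A single library, P2KO replicate 6, stood above the controls, and without it the log2 fold change turned from 0.21 ± 0.21 to -0.024. In the other line Pkm was at 1027, 878, 1198 and 1308 CPM in the controls and at 1135, 1215, 1667 and 1617 CPM in the deficient libraries. Replicates 15 and 17, both with the title suffix f, lay above every control and replicates 11 and 12, with the suffix m, within their range. Its log2 fold change was 0.37 ± 0.17 (interval -0.010 to 0.75, edgeR adjusted p 1). Pgam1 was at 29.4 to 48.8 CPM in P2KO against 31.25 to 38.7 in P2WT and at 40.7 to 64.1 CPM in P2H2KO against 30.0 to 48.0 in P2H2WT. Its groups overlapped in both lines, with log2 fold changes of 0.18 ± 0.15 and 0.40 ± 0.17 (edgeR adjusted p 1 in both).

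**Figure D2:**
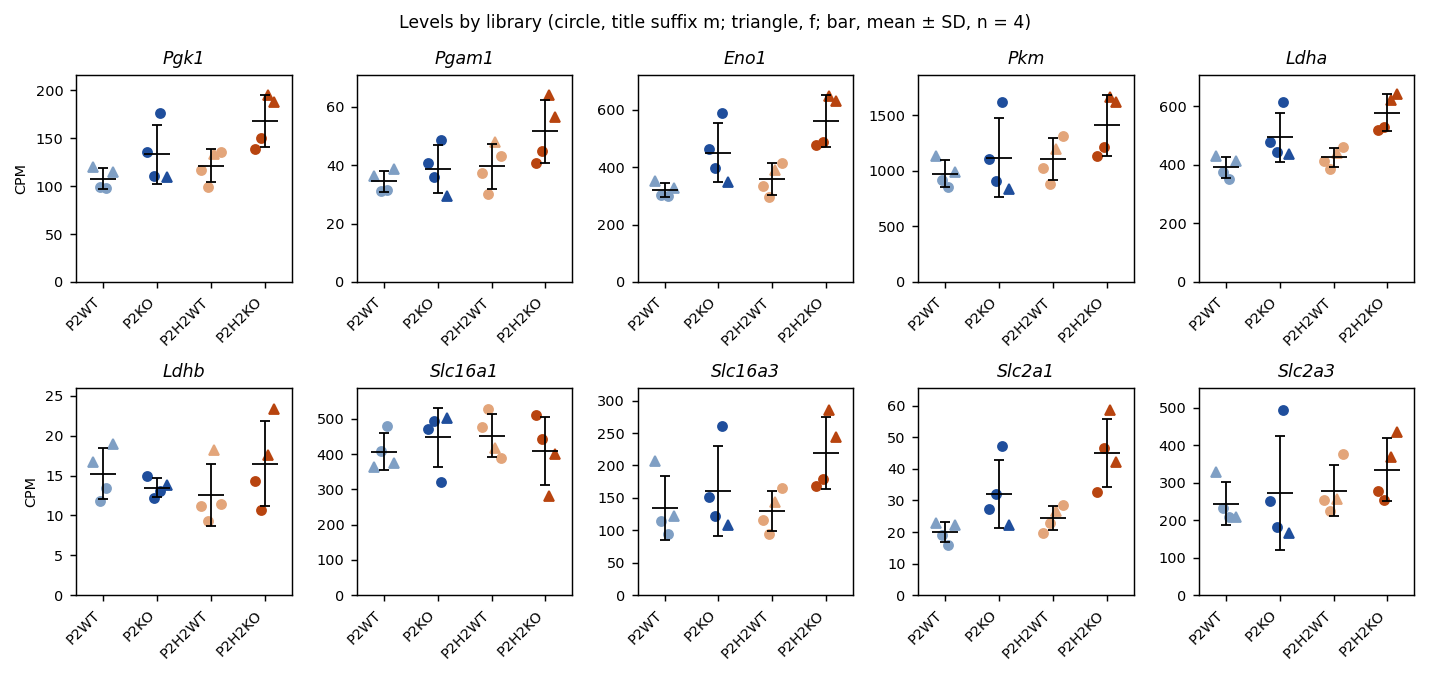
Level of each of the 10 genes in each library in CPM (linear axes from 0), with circles for title suffix m, triangles for f, and the mean ± SD of 4 libraries as bars. Ldha separates the deficient from the control libraries in both lines, Eno1 and Slc2a1 only in the P2H2 line, and P2KO replicate 6 is the highest P2KO library for Slc2a3 (494 CPM) and the lowest for Slc16a1 (321.5 CPM).

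The A subunit gene of lactate dehydrogenase had no overlap between genotypes in either line. Ldha was at 375, 350.4, 412 and 429.8 CPM in P2WT and at 479, 444.5, 613.5 and 436 CPM in P2KO. The lowest P2KO library lay just above the highest control. The log2 fold change was 0.35 ± 0.13 (interval 0.054 to 0.64), with an edgeR p of 0.0252 and an adjusted p of 1. P2H2WT libraries had 413, 387, 439 and 461 CPM of Ldha and P2H2KO libraries 519, 529, 621 and 641 CPM, a wider gap. Ldha differed by a log2 fold change of 0.46 ± 0.10 (interval 0.23 to 0.68), with an edgeR p of 0.00125 and an adjusted p of 0.537. DESeq2 gave an adjusted p of 0.00402 for Ldha in that line.

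Ldhb, the B subunit that predominates in oxidative tissues such as heart, was at 11.8 to 19.0 CPM in P2WT and 12.2 to 14.9 CPM in P2KO. In the other line it was at 9.34 to 18.2 CPM in the controls and 10.7 to 23.3 CPM in the deficient libraries. Its groups overlapped in both lines, and its log2 fold changes had opposite signs, -0.16 ± 0.15 and 0.41 ± 0.26 (edgeR adjusted p 1 in both). Gm5514, a pseudogene nearly identical to Ldhb, had 0 to 1 counts per library in the P2 line. It had 5 to 24 counts in P2H2WT and 0 to 22 in P2H2KO, up to 8.51% as many as Ldhb in a library. Reads shared between them could therefore matter for Ldhb. For the other genes such copies held at most 0.614% as many counts as the gene. Yet copies of Pgk1 (over 1252 and 1255 aligned bases) and of Pgam1 (over 765) are 100% identical to it, and 1 of Eno1 is 99.6% identical over 1302. Low counts on a copy do not show how reads matching both places were handled, which the sources used here do not give. The levels of these genes carry that limit. Per kb, the ratio of Ldha to Ldhb was 4.74 ± 0.26 on the log2 scale in P2KO (SD, n = 4) and 4.27 ± 0.22 in P2WT, an exact two-sided permutation p of 0.0571 (0.171 after Benjamini-Hochberg adjustment over 6 ratio tests). In the P2H2 line it was 4.74 ± 0.35 and 4.69 ± 0.36 (exact permutation p 0.886, adjusted 0.886). With 4 libraries against 4 this test cannot give a p below 0.0286.

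The exporter gene Slc16a3 was at 114.6, 94.0, 123 and 207 CPM in P2WT and at 152, 122, 261 and 108 CPM in P2KO. The groups overlapped, and the log2 fold change of 0.27 ± 0.32 (edgeR adjusted p 1) became -0.070 without P2KO replicate 6. It was at 116.5, 94.4, 143.5 and 165 CPM in P2H2WT and at 168, 179, 286 and 243 CPM in P2H2KO. There all deficient libraries lay above the controls, by a small margin for replicate 11. Slc16a3 had a log2 fold change of 0.77 ± 0.21 (interval 0.30 to 1.24), with an edgeR p of 0.00491 and an adjusted p of 0.921.

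Slc16a1, the MCT1 gene, showed no such separation. It was at 409.8, 480.1, 374 and 364 CPM in P2WT and at 472.5, 493, 321.5 and 502 CPM in P2KO. In P2H2WT it was at 476, 527, 419 and 389 CPM and in P2H2KO at 509.9, 442, 282.5 and 401 CPM. The library with the lowest level of each deficient group, P2KO replicate 6 and P2H2KO replicate 15, was the one with the highest Slc16a3. The groups overlapped in both lines, with log2 fold changes of 0.15 ± 0.15 and -0.13 ± 0.18 (edgeR adjusted p 1 in both). The latter turned to 0.011 without P2H2KO replicate 15. The log2 ratio of Slc16a3 to Slc16a1 per kb was -0.87 ± 0.71 in P2H2KO and -1.79 ± 0.55 in P2H2WT (exact permutation p 0.143, adjusted 0.214). In the P2 line it was -1.51 ± 0.86 and -1.62 ± 0.64 (exact permutation p 0.8286, adjusted 0.886).

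Slc2a1, the scarcest gene of the set per kb in the wild type, had the largest log2 fold change of the 10 genes in both lines. It was at 19.0, 15.9, 22.3 and 23.03 CPM in P2WT and at 27.2, 32.0, 47.1 and 22.1 CPM in P2KO. Replicates 1, 5 and 6 of P2KO lay above all controls and replicate 9 among them. The log2 fold change was 0.69 ± 0.23 (interval 0.18 to 1.21), with an edgeR p of 0.0137 and an adjusted p of 1. In P2H2WT it was at 19.8, 22.9, 26.5 and 28.65 CPM and in P2H2KO at 32.8, 46.7, 58.7 and 42.0 CPM, without overlap. For Slc2a1 the log2 fold change was 0.90 ± 0.18 (interval 0.50 to 1.29), a 1.86-fold higher level, with an edgeR p of 0.000612 and an adjusted p of 0.368. DESeq2 gave an adjusted p of 0.0022 for Slc2a1. With the title number as a covariate in edgeR, Eno1 (adjusted p 0.00654), Ldha (0.0158) and Slc16a3 (0.0306) passed in this line, with 0.141% of genes called.

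Slc2a3, the more abundant glucose transporter gene per kb, was at 232, 208, 207.5 and 329 CPM in P2WT and at 251, 182, 494 and 167 CPM in P2KO. It was at 255, 225, 258 and 377 CPM in P2H2WT and at 279, 254, 369 and 436 CPM in P2H2KO. The groups overlapped in both lines, and 1 library stood well above the rest in P2WT (replicate 10), P2KO (replicate 6) and P2H2WT (replicate 18). Slc2a3 had log2 fold changes of 0.18 ± 0.34 and 0.28 ± 0.21 (edgeR adjusted p 1 in both), and the first became -0.28 without P2KO replicate 6. The log2 ratio of Slc2a1 to Slc2a3 per kb was -2.72 ± 0.39 in P2KO and -3.31 ± 0.27 in P2WT (exact permutation p 0.0571, adjusted 0.171). It was -2.61 ± 0.42 in P2H2KO and -3.22 ± 0.24 in P2H2WT (exact permutation p 0.0857, adjusted 0.171). GLUT3 transcripts thus outnumbered GLUT1 transcripts per kb in every library.

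**Figure D3:**
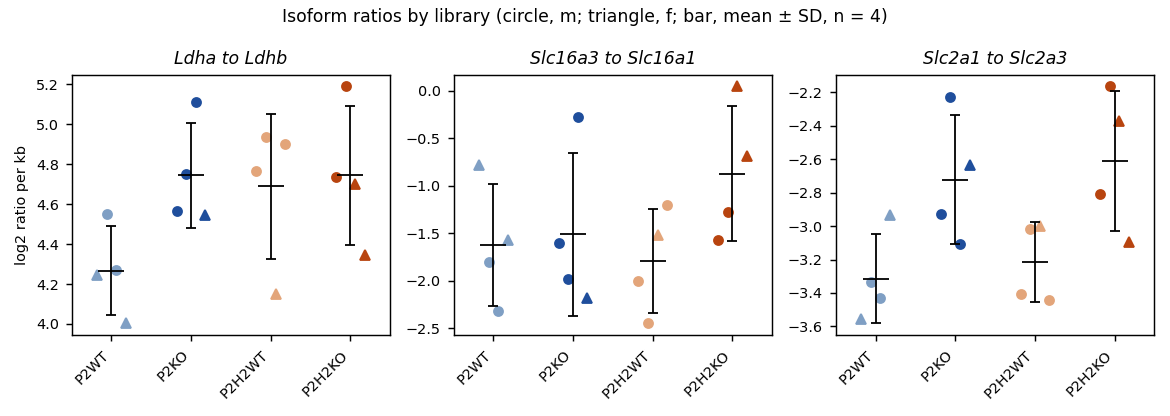
Ratio of paired genes per kb in each library on a log2 scale, with circles for title suffix m, triangles for f, and the mean ± SD of 4 libraries as bars. The Ldha to Ldhb ratio lies between 4.003 and 5.19 in all libraries, and the Slc2a1 to Slc2a3 ratio is below 0 in all of them.

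The mean of both lines' effects, estimated in a fit of all 16 libraries, uses the same libraries as the single lines and is no further evidence. All 10 genes had a mean effect above 0, as did 51.9% of 14080 genes, and none passed the adjusted test, which 24 genes (0.17%) passed. Eno1 (0.57 ± 0.11, edgeR adjusted p 0.0562), Slc2a1 (0.79 ± 0.15, adjusted p 0.0621) and Ldha (0.40 ± 0.082, adjusted p 0.0827) came nearest. Pgk1 (0.39 ± 0.11, adjusted p 0.409) followed. These 4 with Pgam1 and Slc16a3, 6 genes in all, had an unadjusted p under 0.05, against 1.9% of genes that were higher at that level. Slc16a1 had a mean effect of 0.0031 ± 0.12. Eno1, Slc2a1 and Ldha passed at an adjusted p of 0.000359, 0.000438 and 0.00136 in DESeq2 (0.462% of genes called). They also passed at 0.0206, 0.0334 and 0.0341 in edgeR with upper-quartile scaling (0.192%), so for these 3 the call depends on the method. The title number as a covariate brought the same 3 past the threshold (adjusted p 0.0377 or less in edgeR, 0.234% of genes), and a test without a low-count filter Eno1 alone (adjusted p 0.0315, 0.0813%). Leaving out P2KO replicate 9 or P2H2KO replicate 11 brought Eno1 and Slc2a1 past the threshold in edgeR.

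The estimated effect in the P2H2 line was larger than in the P2 line for 9 of the 10 genes, where 50.4% of all genes differed in the direction of Slc16a1, the exception, but no difference between the lines was resolved. The difference, P2 minus P2H2, passed the adjusted edgeR test for 0 of 14080 genes (0%), DESeq2 also called 0, and 1.51% of genes had an unadjusted p under 0.05. Among the 10 genes none reached an unadjusted p of 0.05. All 9 neutrophil markers differed in the same direction as the 9 genes, and all 10 erythroid markers in the opposite one. Other marker lists went either way. The part of cell content in the lean of the 9 genes was not tested. The interval of the difference was -0.64 to 0.30 for Eno1, -0.47 to 0.23 for Ldha, -0.65 to 0.29 for Pgk1 and -0.87 to 0.44 for Slc2a1. It was widest for Slc2a3 (-1.02 to 0.80) and Slc16a3 (-1.40 to 0.37), and Ldhb had the smallest p (difference -0.58, interval -1.28 to 0.11, edgeR p 0.0918, adjusted p 0.999). Differences of these sizes in either direction could not be resolved with these libraries. The wild-type controls of both lines differed by -0.28 (Slc2a1) to 0.28 (Ldhb) on the log2 scale, P2WT minus P2H2WT, with none of the 10 genes past the adjusted edgeR test that 1.22% of 13593 genes passed.

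The preceding part of the pathway, from hexokinase to glyceraldehyde-3-phosphate dehydrogenase, held the pathway genes that passed the test. Of 13 upper glycolysis genes listed, 12 were tested in the mean effect. All 12 were above 0, as were 51.9% of all genes, and 3 rose past the adjusted test, which 0.17% of all genes passed. Pfkl, the liver-type phosphofructokinase subunit, rose by 0.83 ± 0.047 (edgeR adjusted p 7.08e-08), Tpi1, triosephosphate isomerase, by 0.76 ± 0.049 (adjusted p 3.58e-07), and Aldoc, aldolase C, by 1.65 ± 0.11 (adjusted p 6.39e-07). The same 3 passed in each line alone, where 0.0437% (P2) and 0.0744% (P2H2) of genes passed. In the 6 f libraries alone, with only 1 in P2KO and 1 in P2H2WT, their mean effects were 0.73, 0.63 and 1.69. The median log2 change over the 12 was 0.34, as it was over the 10 lower glycolysis and transport genes. Tpi1 and Slc2a1 had similar mean effects, 0.76 and 0.79, but SEs of 0.049 and 0.15. Aldoa (0.51 ± 0.11, adjusted p 0.142) and Gapdh (0.45 ± 0.10, adjusted p 0.153), the latter chosen after its value was seen, did not pass in edgeR. Aldoa passed in DESeq2 (adjusted p 0.00458).

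**Figure D4:**
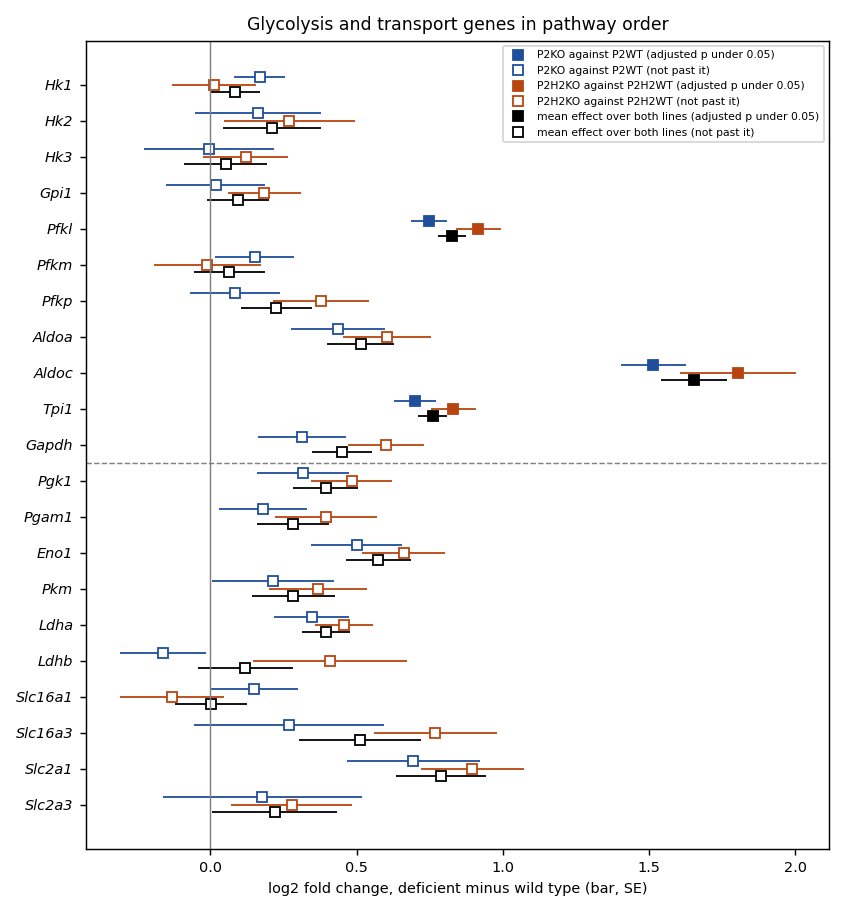
Log2 fold changes with their SE for upper glycolysis genes (above the dashed line) and for the 10 genes described here (below it) in each line and for the mean effect. Filled squares passed an edgeR adjusted p of 0.05, as Pfkl, Aldoc and Tpi1 did in all 3 estimates, and open squares did not.

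Sister genes of the same steps and other carriers were listed too. Of 10 listed other isoforms, 6 were tested in the mean effect, with 4 above 0 and none called (median log2 change 0.054). Ldhc, the testis subunit of lactate dehydrogenase, had a mean effect of -0.27 ± 0.15, and Bpgm, the bisphosphoglycerate mutase of red blood cells, one of -0.10 ± 0.16 (edgeR adjusted p 1 in both). Ldhd was at 0.49 ± 0.36 and Pgam2 at 0.12 ± 0.28, both near the floor, with group means of 0.24 to 0.37 and 0.32 to 0.55 CPM. The filter on low counts removed Ldhd in both single lines and Pgam2 in the P2H2 line. Of 24 listed other sugar and monocarboxylate carriers, 15 were tested, with 6 above 0 and 9 below, none called, and a median of -0.010. Slc16a9 had the smallest p among them, with a mean effect of -0.40 ± 0.12 (edgeR adjusted p 0.629). Slc16a7 was at -0.19 ± 0.13, the mitochondrial pyruvate carrier gene Mpc1 at 0.098 ± 0.085 and Slc2a9 at 0.18 ± 0.15.

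For most of the genes, the spread between libraries of 1 group went with their marker content. In each group, 1 library had the highest sum of the 6 late granule markers Ltf, Camp, Ngp, Lcn2, Cybb and Chil3: P2WT replicate 10, P2KO replicate 6, P2H2WT replicate 18 and P2H2KO replicate 17. Slc2a3 and Ldha had their highest level of the group in that library in 4 of 4 groups, and Pgk1, Eno1, Pkm, Slc16a3 and Slc2a1 in 3 of 4. Pgam1 and Ldhb had theirs there in 1 of 4 groups each. Slc16a1 had its lowest level there in 3 of 4. The sum of the 9 neutrophil markers was also the highest of the group in these libraries (P2WT 32320, P2KO 38830, P2H2WT 37060 and P2H2KO 42990 CPM). Relations to the late granule sum were therefore not told apart from relations to neutrophil content. The late granule sum ran from 26380 to 38160 CPM in P2WT, 20940 to 45250 in P2KO, 28660 to 43740 in P2H2WT and 27640 to 49850 in P2H2KO. The erythroid sum ran from 30800 to 42560, 24340 to 43990, 35520 to 49800 and 24630 to 46200 CPM in the same order.

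Deviations of the 16 libraries from their group means on the log2 scale were then compared, for 10 genes and both sums, by exact permutation of libraries within groups and Benjamini-Hochberg adjustment over 20 relations chosen after the values were seen. Slc2a3 followed the late granule sum with r = 0.984 and rho = 0.968 (exact permutation adjusted p 0.000121 for r and 0.0001 for rho), with r = 0.993 in the P2 line and 0.989 in the P2H2 line. Without the 2 farthest libraries r was 0.979. Ldha (r = 0.93, rho = 0.91) had adjusted exact permutation p-values of 0.000265 and 0.000327, and r = 0.869 without the 2 farthest. Slc2a1 followed it least among the 8 genes with a positive relation past 0.05 (r = 0.645, rho = 0.566, exact permutation adjusted p 0.0459 and 0.0645), with r = 0.569 without the 2 farthest libraries, 0.792 in the P2 line and 0.42 in the P2H2 line.

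Slc16a1 instead followed the erythroid sum with r = 0.987 and rho = 0.978 (exact permutation adjusted p 0.000121 and 0.0001), with r = 0.98 within P2, 0.998 within P2H2 and 0.973 without the 2 farthest libraries. Of the other 9 genes, 8 had a negative relation to the erythroid sum with an adjusted p under 0.05, from r = -0.744 for Slc2a3 to -0.897 for Pgk1. Ldhb passed for neither sum by r (0.425 and -0.364, exact permutation adjusted p 0.106 and 0.221), although its rho of 0.605 and -0.59 did (0.0223 and 0.0302). All these values come from the same libraries and share their scaling.

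**Figure D5:**
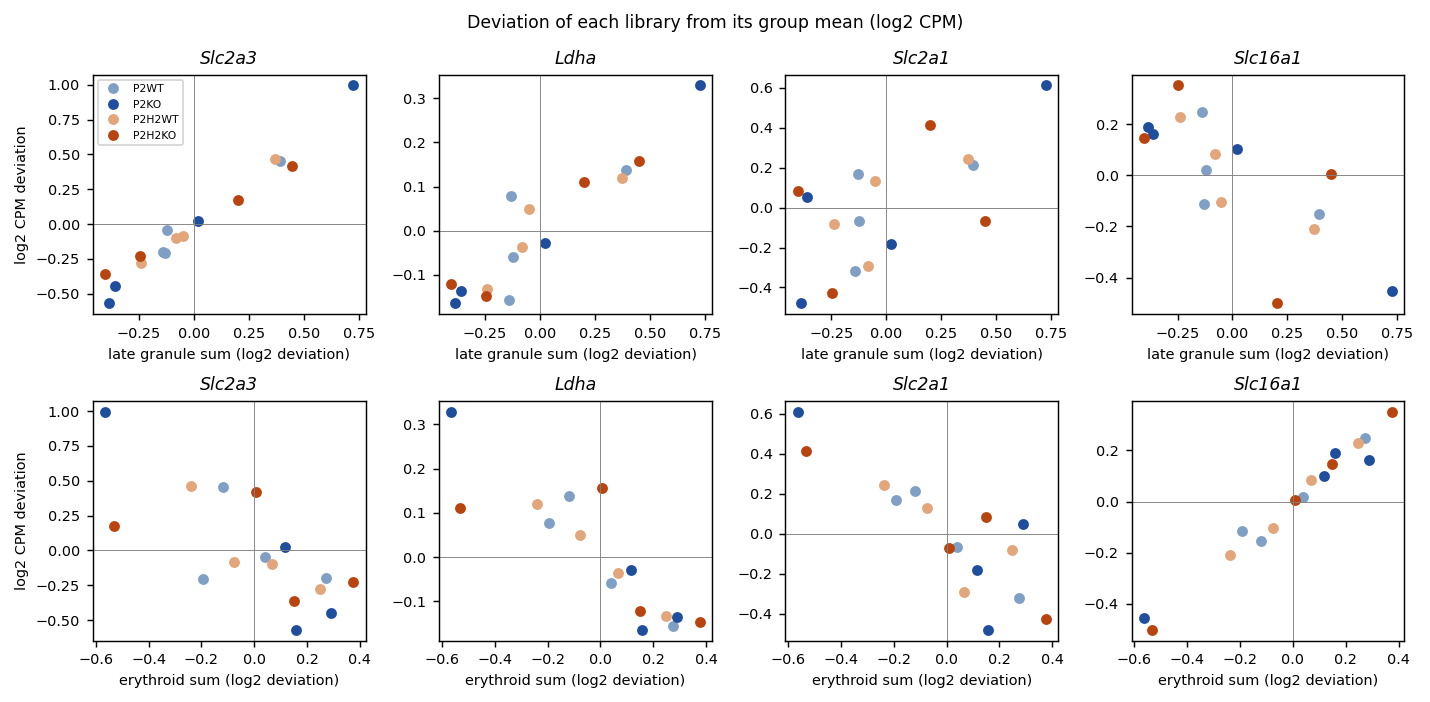
Deviation of each library from its group mean in log2 CPM for 4 genes (vertical) against the deviation of the summed late granule markers (upper row) and erythroid markers (lower row). Slc2a3 lies along the late granule axis (r = 0.984) and Slc16a1 along the erythroid axis (r = 0.987).

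Marker lists also leaned to one side between genotypes. All 10 erythroid markers were higher in P2KO than in P2WT (median log2 change 0.099), where 57.8% of all genes were above 0. All 10 were lower in P2H2KO than in P2H2WT (median -0.18), where 50.5% of all genes were above 0. All 6 late granule markers were higher in P2H2KO (median 0.15), and 5 of 6 were lower in P2KO (median -0.015). All 9 neutrophil markers were higher in P2H2KO (median 0.21), and 4 of 9 in P2KO (median -0.0057). Of the 11 monocyte and macrophage markers, 11 were lower in P2KO and 7 in P2H2KO (median -0.29 in both). Of the 7 T and NK cell markers, 7 were lower in P2KO (median -0.27) and 4 in P2H2KO (median -0.081). The 7 B cell markers were all lower in P2H2KO (median -0.35), and 2 of them in P2KO (median 0.040). Of the 5 megakaryocyte markers, 5 were higher in P2KO (median 0.53) and 4 in P2H2KO (median 0.33). Cell cycle markers were higher in P2KO for 10 of 10 (median 0.081) and lower in P2H2KO for 9 of 10 (median -0.070). The 5 early granule markers (Mpo, Elane, Prtn3, Ctsg and Ms4a3) were all lower in P2KO (median -0.087) and all higher in P2H2KO (median 0.19). None of these markers passed the adjusted edgeR test, and the part of the lists other than erythroid and late granule in the results was not tested. The erythroid and late granule scores were therefore entered as covariates. The SEs of the genes called became smaller, and the largest shift in their log2 changes was that of Slc16a3 in the P2H2 line, from 0.77 to 0.58. In the P2 line Eno1 rose by 0.53 ± 0.051 (edgeR adjusted p 0.0052), Ldha by 0.38 ± 0.038 (adjusted p 0.00621) and Pgk1 by 0.35 ± 0.044 (adjusted p 0.0193), with 0.175% of genes called. In the P2H2 line Eno1 rose by 0.55 ± 0.053 (adjusted p 0.00349), Ldha by 0.40 ± 0.043 (adjusted p 0.00769) and Slc16a3 by 0.58 ± 0.064 (adjusted p 0.00819), with 0.141% called.

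With the same covariates, 6 of the 10 genes passed in the mean effect, where 0.469% of genes were called. Eno1 (0.54 ± 0.036, edgeR adjusted p 4.11e-07), Ldha (0.37 ± 0.026, 8.42e-07) and Pgk1 (0.35 ± 0.033, 2.16e-05) had the smallest adjusted p, ahead of Slc2a1 (0.70 ± 0.090, 0.00152), Pkm (0.23 ± 0.032, 0.00169) and Slc16a3 (0.46 ± 0.078, 0.0177). Pgam1, Ldhb, Slc16a1 and Slc2a3 did not pass. The scores were computed from the same counts, and they differ somewhat between genotypes. The title suffixes were spread unevenly over the groups, with 10 libraries of suffix m and 6 of suffix f. P2KO and P2H2WT held only 1 f library each, so the f effect of each line rests on a single library on 1 side. In m libraries alone the mean effect was above 0 for 10 of 10 genes, and in f libraries alone for 7, with Pgam1 at -0.021, Ldhb at -0.11 and Slc2a3 at -0.030.

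Genes with the most similar pattern over the 16 libraries were sought among 9612 genes, after the mean of each line was taken out. For Pgk1 they were Aldoa (r = 0.983), Prelid1 (0.972) and Eno1 (0.969), for Ldha Aldoa (0.982), Eno1 (0.980) and Prelid1 (0.974), and for Slc2a1 Prelid1 (0.954), Ldha (0.926) and Eno1 (0.923). Aldoa encodes aldolase A of glycolysis and Prelid1 a lipid transfer protein of mitochondria. These r values describe libraries that share depth scaling and cell content.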

How the data were processed

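RNA of 16 libraries was sequenced, and the authors deposited 2 tables of raw counts per gene, with 49585 Ensembl identifiers and 8 libraries each, per the file headers. Reads were assigned to genes with HTSeq on mm10, per the submitters' processing notes, and the aligner, annotation release and use of strand are not given in the sources used here. GENCODE M21 named 49326 identifiers, and the other 259 held 0.00714% of counts. Groups were taken from titles and descriptions. Genes were filtered (filterByExpr), scaled (TMM) and tested with the quasi-likelihood test of edgeR 4.0.16 in R 4.3.3, two-sided, with Benjamini-Hochberg adjustment over all genes tested and a threshold of 0.05. Each line was fitted on its own 8 libraries, and the mean effect and the difference of the effects on all 16. The procedure was tested on simulated counts. CPM was computed from all 16 libraries with TMM, and CPM per kb with the length of the principal transcript. DESeq2 1.42.0 and other scalings, filters and covariates (title suffix, title number, marker scores) were alternatives, and fits of m or f libraries alone were added after seeing the data. Pseudogenes were matched with blastn 2.17.0 (at least 95% identity over 300 bases). Exact permutation tests of the ratios were run in R and those of the relations with numpy 2.4.6. Ranks and the r values of single lines or fewer libraries used scipy 1.17.1. The 10 genes and all lists were chosen with earlier results of these data known. The genes described are the 10 genes, up to 4 genes of each pathway list with the smallest p in the mean effect, the targeted genes, and the 3 genes most like Pgk1, Ldha and Slc2a1 among genes with a mean of at least 5 CPM. Read depth of 23450746 to 28601284 counts leaves little counting error for the abundant genes of the 10, where the spread between libraries sets the precision. Counting error is larger for genes with few counts, such as Ldhb (235 to 524 counts per library), Pgam2 (4 to 21) and Ldhd (2 to 16).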

Additional observations from a re-analysis of the deposited data

Results flagged for a closer look

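The spread within groups of 4 was examined for the 10 genes, the targeted genes and the ratios, in 64 groups, and 3 held a library whose gap to its nearest neighbour was, as a share of the group's range, above Dixon's 95% critical value. Chance gives about 1 such group in 20. Slc16a1 was at 321.5 CPM in P2KO replicate 6, far below the other P2KO libraries (472.5 to 502 CPM). Hif1a, the gene of the other HIF alpha subunit, was at 90.22 CPM in the same library, above the rest of its group, which reached down to 72.6 CPM. P2WT libraries had 81.9 to 120.6 CPM of Hif1a. Its log2 fold change in the P2 line was -0.35 ± 0.13 (SE, interval -0.64 to -0.056) and did not pass the adjusted edgeR test. Between P2H2KO (71.7 to 109.3 CPM) and P2H2WT (78.8 to 104.3 CPM) Hif1a overlapped. Egln1 was at 47.73 CPM in P2H2WT replicate 14, below the other controls, which reached 54.6 CPM. P2KO replicate 6 also had the highest late granule sum (45250 CPM) and the lowest erythroid sum (24340 CPM) of its group, and the part of that content in its Slc16a1 value was not tested beyond the relation given above.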

How the results depend on the processing

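No paired analysis was possible because no replicate number is shared between the groups. The counts of genes past the threshold depended on the method. In the P2 line 6 became 23 with DESeq2, 24 with marker scores as covariates, 10 with all 16 libraries in the fit and 1 with m libraries only, and 4 to 6 with a library left out. In the P2H2 line 10 became 42 with DESeq2, 19 with the title number, 19 with marker scores and 3 with m libraries only, and 6 to 9 with a library left out (6 without P2H2WT replicate 13). In the mean effect 24 became 65 with DESeq2, 66 with marker scores, 14 with m libraries only, and 15 to 30 with a library left out (15 without P2WT replicate 4). Between the wild types 166 became 419 with DESeq2 and 76 to 167 with a library left out. Of the 10 genes, 0 became 3 in the P2 line with marker scores. Of the 10 genes in the P2H2 line, 0 became 3 with DESeq2, 3 with the title number and 3 with marker scores. In the mean effect 0 became 3 with DESeq2, 3 with upper-quartile factors, 1 with no filter, 3 with the title number, 6 with marker scores and 0 to 2 with a library left out. In both single lines and in the difference it was 0 with each library left out. The signs of some log2 changes turned. With m libraries only these were Ldhb (0.091) and Slc16a1 (-0.049) in the P2 line and Slc16a1 (0.049) and Slc2a3 (-0.088) in the P2H2 line, and with f libraries only, in the mean effect, Pgam1 (-0.021), Ldhb (-0.11), Slc2a3 (-0.030), Bpgm (0.013) and Mpc1 (-0.092). With marker scores they were Slc16a1 in the P2H2 line (0.039) and the differences of Slc2a1 (0.020) and Slc2a3 (0.0025). The mean effect of Slc16a1 was -0.0049 with no filter, -0.0012 with at least 10 counts in every library and -0.059 with the title number. Slc16a3 between the wild types was -0.098 with the suffix. With a library left out, the P2 line gave -0.024 to 0.32 for Pkm, -0.070 to 0.57 for Slc16a3 and -0.28 to 0.37 for Slc2a3. The P2H2 line gave -0.26 to 0.011 for Slc16a1, and the difference -0.57 to 0.071 for Slc2a3. The mean effect ran from -0.058 to 0.074 for Slc16a1, -0.0064 to 0.31 for Slc2a3 and -0.043 to 0.23 for Pgam2, and the wild-type difference from -0.24 to 0.19 for Slc16a3. The log2 ratio differences in the P2 and P2H2 lines ran from 0.35 to 0.57 and -0.12 to 0.19 for Ldha to Ldhb, -0.30 to 0.39 and 0.61 to 1.15 for Slc16a3 to Slc16a1, and 0.42 to 0.72 and 0.46 to 0.77 for Slc2a1 to Slc2a3. The cause of these changes was not tested, except that leaving out libraries or fitting 1 suffix uses fewer of them. Adding pseudogene counts changed no call. Those counts were at most 0.614% of the gene's own, except for Ldhb (up to 8.51%), so the check could move little. It does not test reads that match both a gene and its copy.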

Other observations

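Ldhb was higher in the f than in the m libraries of 3 groups. In P2WT it was at 16.75 and 19.0 CPM in the f libraries and 11.8 and 13.4 CPM in the m libraries, in P2H2WT at 18.2 CPM in the f library and 9.34 to 11.4 CPM in the m libraries, and in P2H2KO at 17.6 and 23.3 CPM (f) and 14.4 and 10.7 CPM (m). In P2KO the f library was at 13.8 CPM, among the m libraries at 12.2 to 14.9 CPM. This was seen after the values were examined and was not tested.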
